A study of Mus musculus with 16 samples.

Results

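CD8 T cells with 1 T cell receptor beta chain (TRB) and 2 alpha chains (TRA) were studied in single-cell receptor data of a mouse model of melanoma-associated vitiligo. A cell was a member when its barcode held exactly 1 TRB and exactly 2 distinct TRA sequences. Sequences were compared by the nucleotides of the third complementarity-determining region (CDR3). This loop forms where a V segment joins a J segment, in TRB with a D segment between them. Only contigs given as productive, full-length and of high confidence were counted, and barcodes with 1 TRB and 1 TRA served as the comparison. There were 307 such cells among the 2548 lymph node barcodes with 1 TRB and 1 or 2 TRA, and 128 among the 1322 of skin, or 435 of 3870 in all. They are called dual TRA cells below, and the others single TRA cells. The mice were of the strain C57BL/6 and 16 weeks old, and both tissues were taken 45 days after tumor surgery. In each tissue, T cells carrying CD8 and CD44 had been sorted, CD44 being a surface protein that is raised on T cells after they have met antigen. The lymph node was the one that drained the tumor, and the skin carried the vitiligo lesions of the same model, in which pigment cells are lost alongside the response to the tumor. The number of mice behind each library was not given in the sources used here, and all samples used here came from this model, with no other group to compare.

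Each tissue was 1 library sequenced on 4 lanes that the authors had pooled, so there is no replicate and no test. All intervals are exact 95% intervals and cover counting error only. The receptor tables held 3744 lymph node and 1986 skin barcodes, and 12 barcodes occurred in both, 0 of them with the same TRB. The lymph node gene table held 3266 cells at a median of 4423 unique molecular identifiers (UMIs, tags that mark single captured RNA molecules) per cell. The labelled cell type was borne out in the 283 dual TRA cells of that table, since 98.2% had a UMI of Cd8b1 and 98.2% of Cd3e. Cd44 itself was seen in 26.1% of them and in 25.4% of the 1852 single TRA cells. Skin expression was not analysed here.

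A T cell first rearranges its TRB genes, and a working beta chain stops further TRB rearrangement, which is called allelic exclusion. TRA rearrangement then proceeds on both copies of chromosome 14 and can be repeated on the same copy, because each new V to J joining uses a V segment farther upstream and a J segment farther downstream. It ends when a receptor passes positive selection, so a mature T cell can keep a productive TRA on each copy. In mm10 the annotated TRAV genes lie on the + strand at chr14:52427928-53977678, the TRAJ genes at chr14:54155005-54218842 and the constant gene Trac at chr14:54220521-54224206. TRAJ segments are numbered against the direction of transcription, so high numbers lie nearest to the V segments.

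The clearest members were clones in which the same 2 TRA were found together in more than 1 cell. A clone was defined here by its TRB alone (CDR3 nucleotides, TRBV and TRBJ), so that membership did not depend on the TRA. The sequences of the 5 skin clones with most such cells, and of the only such lymph node clone, are shown because they let the chains of a pair be compared base by base. They are CDR3 sequences of the coding strand, 5′ to 3′. Capitals mark junction bases that match neither the end of the germline V gene nor the start of the germline J gene in GENCODE M21. D segments were not matched, so the capitals of a TRB include any bases of its D segment. First TRA is the one with more UMIs summed over the clone's dual TRA cells.
Skin pair 1 TRB (TRBV19 with TRBJ2-2): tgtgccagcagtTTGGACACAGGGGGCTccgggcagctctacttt
Skin pair 1 first TRA (TRAV5-4 with TRAJ48): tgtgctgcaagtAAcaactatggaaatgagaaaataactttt
Skin pair 1 second TRA (TRAV15-1-DV6-1 with TRAJ45): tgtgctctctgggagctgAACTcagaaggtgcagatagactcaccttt
Skin pair 2 TRB (TRBV13-3 with TRBJ1-3): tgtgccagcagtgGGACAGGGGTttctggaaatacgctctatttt
Skin pair 2 first TRA (TRAV16N with TRAJ5): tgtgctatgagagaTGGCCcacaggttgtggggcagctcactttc
Skin pair 2 second TRA (TRAV13N-1 with TRAJ5): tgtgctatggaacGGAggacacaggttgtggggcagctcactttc
Skin pair 3 TRB (TRBV19 with TRBJ2-4): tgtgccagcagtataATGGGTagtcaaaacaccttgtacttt
Skin pair 3 first TRA (TRAV13-4-DV7 with TRAJ49): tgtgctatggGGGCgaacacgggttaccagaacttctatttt
Skin pair 3 second TRA (TRAV14-2 with TRAJ50): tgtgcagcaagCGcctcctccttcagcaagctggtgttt
Skin pair 4 TRB (TRBV10 with TRBJ1-3): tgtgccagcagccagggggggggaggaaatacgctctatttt
Skin pair 4 first TRA (TRAV8D-2 with TRAJ21): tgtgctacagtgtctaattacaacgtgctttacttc
Skin pair 4 second TRA (TRAV16N with TRAJ6): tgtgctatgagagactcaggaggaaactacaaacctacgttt
Skin pair 5 TRB (TRBV29 with TRBJ2-5): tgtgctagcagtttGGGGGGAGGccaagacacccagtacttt
Skin pair 5 first TRA (TRAV9-1 with TRAJ37): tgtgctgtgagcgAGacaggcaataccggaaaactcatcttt
Skin pair 5 second TRA (TRAV11 with TRAJ42): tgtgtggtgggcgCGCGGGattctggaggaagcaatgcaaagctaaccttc
Lymph node pair 1 TRB (TRBV1 with TRBJ2-7): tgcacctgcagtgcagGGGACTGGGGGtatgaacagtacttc
Lymph node pair 1 first TRA (TRAV9-1 with TRAJ48): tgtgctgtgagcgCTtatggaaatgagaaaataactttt
Lymph node pair 1 second TRA (TRAV6-6 with TRAJ34): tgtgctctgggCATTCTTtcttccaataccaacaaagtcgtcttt

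In each of these pairs the TRA chains differed in V segment, and only in skin pair 2 did they share a J segment, TRAJ5. The TRB of skin pair 4 is without capitals because its V end could not be matched, whereas its TRA chains were matched in full and hold 0 junction bases. GENCODE M21 lists TRBV10, the V segment of that TRB, as a pseudogene, although its contigs were given as productive. In skin pair 3 the chains used the neighbouring segments TRAJ49 (chr14:54168686-54168747) and TRAJ50 (chr14:54167590-54167652), and in skin pair 4 they used TRAJ21 (chr14:54198790-54198846) and TRAJ6 (chr14:54212688-54212749). TRAV names with D or N belong to near-identical copies of other TRAV genes within a duplicated stretch of the locus, so which copy was rearranged is uncertain.

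Of 189 skin clones with 2 or more cells, 37 had a dual TRA cell and 12 had the same pair in at least 2 cells. Counted over cells, of the 69 dual TRA cells in skin clones of 2 or more cells, 42 (60.9%, 48.4 to 72.4) had another cell of the clone with the same 2 TRA. The other 27 shared 1 TRA with a cell of their clone, and 0 shared neither. The 42 cells came from those 12 clones, with 2 to 8 of them each. In the lymph node, where the largest clone held 4 cells, this applied to 2 of 16 dual TRA cells (12.5%, 1.55 to 38.3), both of lymph node pair 1. A further 13 of the 16 shared 1 TRA, and 1 shared neither. For comparison, single TRA cells in clones of 2 or more cells had their TRA in another cell of the clone in 95.6% (93.9 to 96.9) of 789 skin and 66.7% (58.8 to 73.9) of 162 lymph node cells.

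Skin pair 1 was the largest such clone, with 22 cells, TRBV19 and TRBJ2-2. Both TRA were seen in 8 of its cells, the first alone in 11 and the second alone in 3. In the 8 cells with both, the first TRA had 3, 1, 4, 3, 1, 3, 3 and 4 UMIs and the second had 4, 3, 3, 2, 1, 3, 2 and 2. Neither chain was always the higher: the first led in 4 cells, the second in 2, and 2 cells were equal. Neither TRA was seen with any other TRB in skin.

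In skin pair 2, 5 of 9 cells had both TRA, 1 the first alone and 3 the second alone. The first TRA had 3, 6, 1, 3 and 2 UMIs in the cells with both, and the second 2, 5, 1, 3 and 2, so that the second never exceeded the first. Skin pair 3 had both TRA in 4 of 6 cells, with 3 UMIs of the first TRA in every one and 3, 2, 4 and 2 of the second. Skin pair 4 was uneven: in 4 of 5 cells with both, the first TRA had 6, 7, 6 and 8 UMIs and the second 4, 2, 2 and 4. This first TRA, made of TRAV8D-2 and TRAJ21, was also found in 23 skin cells with other TRB. Skin pair 5 had both TRA in 3 of 11 cells, the first alone in 4 and the second alone in 4.

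Over all 12 skin clones, 78 cells had 1 TRB and a TRA. Both TRA of the pair were seen in 42 of them (53.8%, 42.2 to 65.2), the first alone in 19, the second alone in 15, and another TRA in 2. Read chain by chain, the first TRA was seen in 42 of 57 cells with the second (73.7%, 60.3 to 84.5). The second TRA was seen in 42 of 61 cells with the first (68.9%, 55.7 to 80.1), and in 34 of 42 (81.0%, 65.9 to 91.4) without skin pair 1. The clones were chosen for having the pair in at least 2 cells, which raises all these shares, and the intervals leave this out. Cells of these clones with 1 TRA had a median of 3 TRB UMIs, and those with both had 3.5. A cell whose other TRA was missed and a cell without it cannot be told apart in these counts.

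**Figure D1:**
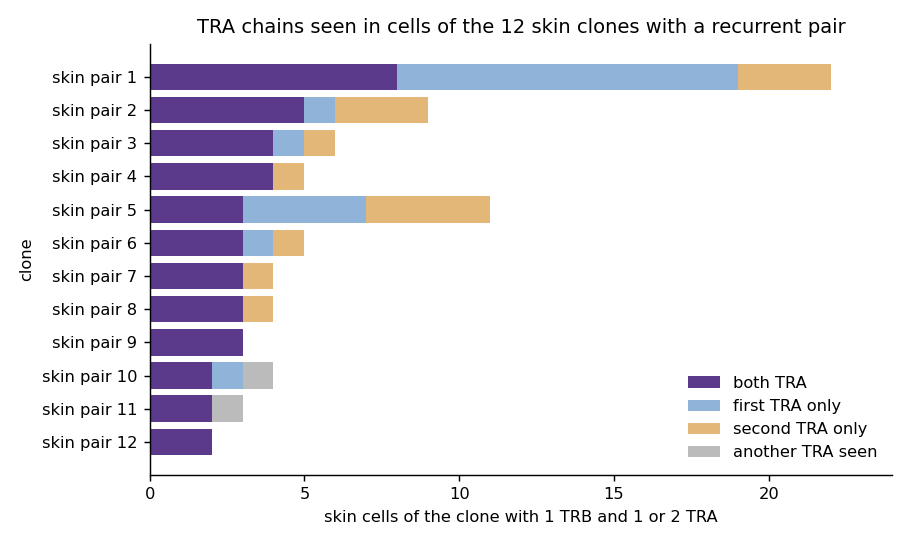
Number of skin cells (horizontal axis) in each of the 12 clones in which the same 2 TRA were found together in at least 2 cells, divided by which TRA was seen. In skin pair 1, 8 of 22 cells held both TRA, and skin pairs 9 and 12 held both in all their cells (3 and 2).

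Only 1 clone had dual TRA cells in both tissues. This was skin pair 5 (TRBV29, TRBJ2-5), which had 11 skin cells, 3 of them with both TRA, and 2 lymph node cells, 1 of them with both. Of 37 TRB clones present in both tissues, 3 had a dual TRA cell in the lymph node and 8 in skin. Skin pair 2 had 1 lymph node cell, with the first TRA, and skin pair 3 had 2, of which 1 had the first TRA and 0 the second. Among cells whose TRB clone was also in the other tissue, 3 of 52 in the lymph node (5.77%, 1.21 to 15.9) and 17 of 296 in skin (5.74%, 3.38 to 9.04) were dual TRA cells. For the remaining skin cells the share was 10.8% (8.98 to 12.9), an interval that overlaps the previous one narrowly, and the largest skin clone gave 88 of the 296 cells.

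The share of dual TRA cells was 12.05% (10.8 to 13.4) in the lymph node and 9.68% (8.14 to 11.4) in skin, with overlapping intervals. With 1 cell counted per clone, it was 12.1% (10.9 to 13.5) of 2455 lymph node clones and 11.3% (9.004 to 14.02) of 653 skin clones. The cell counted was the one with most TRB UMIs. It was a dual TRA cell in 298 of the 304 lymph node and 74 of the 96 skin clones that had any. Among clones of 1 cell the share was 12.3% (10.98 to 13.7) and 12.7% (9.82 to 16.1). With stricter contigs the skin share was the lower one, without overlap of the intervals. When contigs needed at least 2 UMIs it was 10.8% (9.54 to 12.2) in the lymph node and 7.11% (5.55 to 8.94) in skin, and when they needed 3 it was 9.18% (7.81 to 10.7) and 4.66% (3.04 to 6.81). With 1 cell per clone these intervals overlapped, at 11.03% (9.73 to 12.4) and 8.10% (5.88 to 10.8) for 2 UMIs and 9.24% (7.85 to 10.8) and 5.71% (3.47 to 8.77) for 3. Skin contigs also had fewer UMIs, with a median of 4 TRB UMIs in single TRA cells against 7 in the lymph node. A share of 1 TRB barcodes had no TRA at all, 20.8% in the lymph node and 21.7% in skin, and they are in neither group.

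In skin the share did not follow clone size in 1 direction. It was 7.75% (5.29 to 10.9) in clones of 2 to 4 cells, 13.4% (8.67 to 19.4) in clones of 5 to 9 cells and 5.35% (3.09 to 8.54) in clones of 10 or more. The last value lay below that of clones of 1 cell (12.7%, 9.82 to 16.1) with no overlap of the intervals. Its 299 cells came from only 15 clones, though, and cells of a clone are not independent, which these intervals leave out. Counted by clone, 6 of the 15 (40%, 16.3 to 67.7) had a dual TRA cell, and a larger clone has more cells in which to see one. The largest skin clone, with 88 cells, had 0 dual TRA cells, which allows a share of up to 3.41%. Without it the clones of 10 or more cells stood at 7.58% (4.40 to 12.02), which overlaps the interval of clones of 1 cell. Without skin pair 1 alone they stood at 2.89% (1.25 to 5.61). In the lymph node, clones of 2 to 4 cells stood at 8.99% (5.23 to 14.2).

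**Figure D2:**
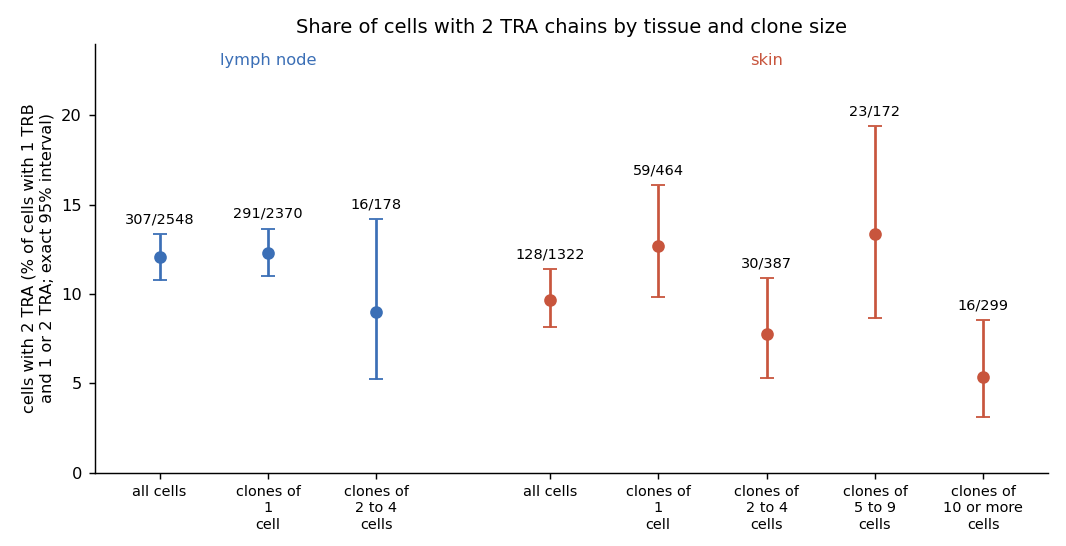
Dual TRA cells as a percentage of cells with 1 TRB and 1 or 2 TRA (vertical axis) in the lymph node and in skin, for all cells and by the number of cells of the TRB clone, with exact 95% intervals and the counts above them. Skin clones of 10 or more cells (16 of 299) lie lowest, and skin clones of 5 to 9 cells (23 of 172) lie highest.

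The dual TRA cells of larger skin clones were concentrated in few clones. Of the 41 skin clones with 5 or more cells, 6 carried a recurrent pair, and 27 of their 58 cells (46.6%, 33.3 to 60.1) were dual TRA cells. In the remaining clones, 12 of 413 cells were (2.91%, 1.51 to 5.02), and 25 clones had none. Since clones were placed in the first set for having the pair at least 2 times, the contrast between the sets is a description of how the cells were distributed.

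Depth moved with the share in the lymph node. There it was 3.53% (0.734 to 9.97) of cells with 1 TRB UMI, 8.88% (6.27 to 12.1) at 2 to 3, 12.8% (10.3 to 15.6) at 4 to 6 and 13.1% (11.4 to 14.97) at 7 or more. It was also higher among lymph node barcodes in the gene table (13.3%, 11.8 to 14.8) than among those absent from it (5.81%, 3.76 to 8.52). Skin showed no such order, with 12.2%, 8.57%, 10.8% and 8.30% in the same classes. Its cells with 7 or more TRB UMIs differed by clone size: 18 of 114 in clones of 1 cell (15.8%, 9.63 to 23.8) but 4 of 151 in larger clones (2.65%, 0.726 to 6.64) were dual TRA cells. Without the largest clone the latter was 4 of 117 (3.42%, 0.939 to 8.52). The 151 cells came from 74 clones, so they are not independent.

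Where both TRA chains of a cell were captured, they were usually present at comparable numbers. The lower TRA had a median of 0.667 of the UMIs of the higher in each tissue, with a middle range of 0.5 to 1 over cells and extremes of 0.167 and 1. In the lymph node the median UMI number was 4 for the higher TRA, 2 for the lower and 3 for the TRA of single TRA cells. In skin these medians were 3, 2 and 3. The lower TRA reached at least 50% of the higher in 78.5% of lymph node and 82.8% of skin dual TRA cells, and it equalled it in 25.7% and 34.4%. It rested on 1 UMI in 23.1% (18.5 to 28.3) and 36.7% (28.4 to 45.7). A cell is a member only with at least 1 UMI of its lower TRA, and the higher TRA had few UMIs. Low ratios could therefore rarely be seen, and part of this similarity is set by the rule.

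Summed over both chains, dual TRA cells had more TRA than single TRA cells, at about the same TRB. The sum had a median of 7 UMIs in the lymph node and 5 in skin, against 3 in single TRA cells of each. TRB UMIs had medians of 8 in dual and 7 in single TRA cells of the lymph node and 4 in both kinds of skin cells. The ratio of TRA to TRB UMIs had a median of 0.8 against 0.455 in the lymph node and 1.33 against 0.667 in skin. A cell enters the dual group only with at least 2 TRA UMIs, so part of this difference is set by the definition.

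**Figure D3:**
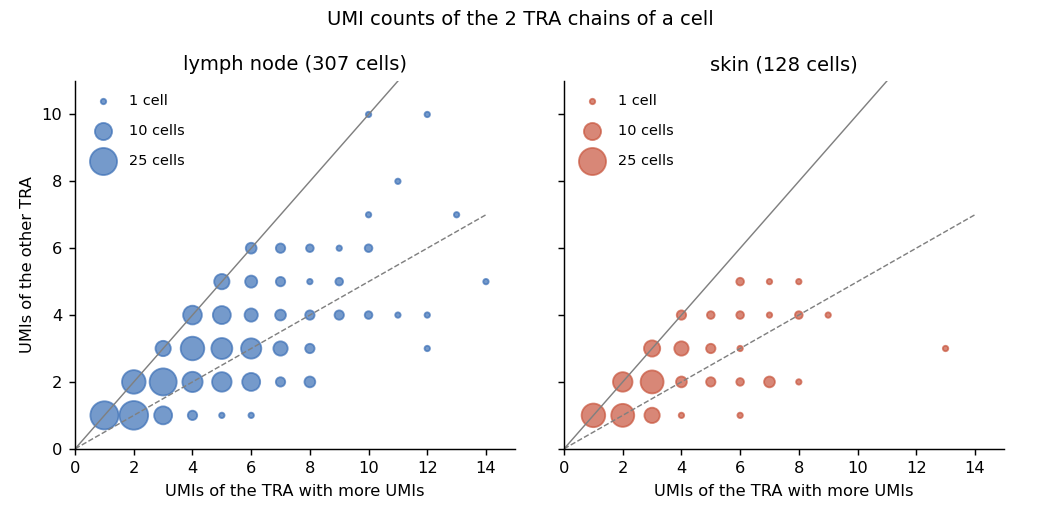
UMIs of the TRA with fewer UMIs (vertical axis) against UMIs of the TRA with more (horizontal axis) in the 307 lymph node and 128 skin dual TRA cells, with the area of a point giving the number of cells. The solid line marks equal UMIs and the dashed line 50% of the higher; most points lie between these lines.

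Each TRA was also looked for in cells of the same tissue that carried another TRB. In the lymph node, 6.19% (3.77 to 9.50) of lower and 8.47% (5.61 to 12.2) of higher TRA were also seen with another TRB, beside 9.64% (8.45 to 10.9) of the TRA of single TRA cells. In skin these shares were 16.4% (10.5 to 23.98), 18.8% (12.4 to 26.6) and 21.8% (19.5 to 24.2). In neither tissue was the lower TRA above the single TRA, and all these intervals overlapped within a tissue. The TRA of the largest skin clone was in 0 of the 128 dual TRA cells, which allows up to 2.34%. In pairs of equal CDR3 length (61 in the lymph node and 23 in skin) the chains differed at 5 or more bases, with medians of 22 and 20.

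Some dual TRA cells of expanded skin clones held 1 TRA that no other cell of the clone had. There were 24 such cells. Their additional TRA was seen with another TRB in 13 (54.2%, 32.8 to 74.4), whereas the TRA they shared with their clone was in 4 (16.7%, 4.74 to 37.4). Among the 42 cells whose pair was found again, either TRA was seen with another TRB in 9 (21.4%, 10.3 to 36.8). In the lymph node 13 such cells had an additional TRA, which rested on 1 UMI in 9 of them and was seen with another TRB in 3. The TRA they shared with their clone was also seen with another TRB in 3 of the 13, so the skin contrast was absent there. Transfer of RNA between droplets was not tested.

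A few TRA sequences recurred with many TRB. In the lymph node the sequence assigned to TRAV14D-2 or TRAV14N-3 with TRAJ22, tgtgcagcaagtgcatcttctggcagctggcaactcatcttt, was in 9 cells with 8 TRB under the first name. Under the second name it was found with 4 TRB, in 4 cells. Dual TRA cells were counted here by sequence, whatever V segment was named, and 4 held this sequence. The TRA of TRAV12D-3 with TRAJ23 was found with 7 TRB in 7 cells, and 1 dual TRA cell held its sequence. In skin the first TRA of skin pair 4 was found with 8 TRB in 27 cells, and 6 dual TRA cells held its sequence. The TRA of TRAV21-DV12 with TRAJ57 was in 5 cells and that of TRAV6-6 with TRAJ13 in 18. Each of these 2 sequences was held by 2 dual TRA cells. Dual TRA cells were 12.05% of all lymph node and 9.68% of all skin cells compared, and a dual TRA cell has more than 1 chance to carry a given TRA. The invariant combinations of TRAV11 with TRAJ18, known from natural killer T cells, and of TRAV1 with TRAJ33, known from mucosal-associated invariant T cells, were in 0 dual TRA cells. For 307 lymph node cells this allows a share of up to 0.977%.

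The TRA chains of a cell used TRAJ segments that lay closer together than those of different cells. Each clone was again counted once, by its cell with most TRB UMIs, which left out skin pairs 2 and 5 among others. The TRAJ numbers of a lymph node pair differed by a median of 9 (quartiles 4 and 15, 298 clones). Those of a higher TRA and the lower TRA of another clone differed by 14 (7 and 23). In skin these medians were 8 (74 clones) and 14. The chains were within 5 TRAJ numbers of each other in 34.2% (28.9 to 39.9) of lymph node and 36.5% (25.6 to 48.5) of skin pairs, against 21.3% and 21.4% across clones. They were more than 30 numbers apart in 4.36% (2.34 to 7.34) and 2.70% (0.329 to 9.42), against 12.3% and 14.2% across clones. In mm10 the median distance between the TRAJ segments of a pair was 9.35 kb in the lymph node and 8.18 kb in skin, against 14.4 and 14.5 kb across clones.

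The TRAJ numbers of the chains of a cell were correlated in each tissue. Spearman's rho was 0.45 and Pearson's r 0.46 over 298 lymph node clones, and 0.53 and 0.56 over 74 skin clones. These are descriptions over clones of 1 library, which share its depth. The segments fell in the same of 4 blocks (TRAJ 2 to 15, 16 to 30, 31 to 45 and 46 to 61) in 42.3% (36.6 to 48.1) and 45.9% (34.3 to 57.9) of pairs, against 27.5% and 27.6% across clones. The median TRAJ number was 30 for the higher, the lower and the single TRA of the lymph node. In skin it was 26, 23 and 30.

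**Figure D4:**
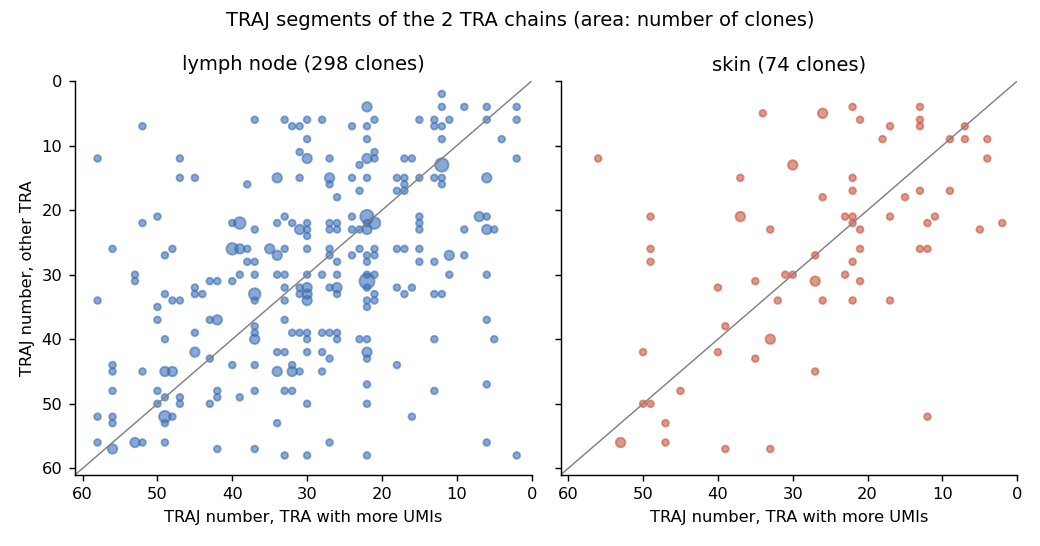
TRAJ number of the TRA with fewer UMIs (vertical axis) against that of the TRA with more UMIs (horizontal axis), 1 point per combination with its area giving the number of clones, in 298 lymph node and 74 skin clones. Axes run from high numbers, nearest to the V segments, to low numbers; few points lie in the corners where the numbers differ by more than 30 (13 and 2 clones).

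The segments described are those with most clones in the lower TRA, a choice that favours higher values there. Clones were counted as for the TRAJ numbers. In lymph node clones TRAV12D-3 was the segment with most lower TRA, at 6.71% (4.15 to 10.2), beside 5.03% of higher and 5.47% of single TRA. TRAV13-1 stood at 6.04% (3.62 to 9.38) of lower and 2.01% (0.742 to 4.33) of higher TRA, with 4.54% of single TRA between them. TRAV3D-3, TRAV7-5 and TRAV14D-1 followed with 4.70%, 3.36% and 3.02% of lower TRA. Among J segments, TRAJ26 was in 6.04% of lower TRA, TRAJ15 in 5.37%, TRAJ22 and TRAJ23 in 5.03% each and TRAJ33 in 4.70%. In higher TRA these stood at 3.36%, 2.35%, 10.7%, 1.68% and 3.36%, so that TRAJ22 was the one with more higher than lower TRA. In single TRA, TRAJ22 was at 8.30% (7.17 to 9.54), TRAJ23 at 4.64% and TRAJ15 at 2.87%. Intervals of the higher and lower chain overlapped for all 10 segments.

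In skin the counts were small. TRAV12D-2 led the lower TRA with 5 of 74 clones (6.76%, 2.23 to 15.1), and TRAV14-2, TRAV3D-3, TRAV5-4 and TRAV6-6 had 4 each. TRAJ21 was in 7 lower and 4 higher TRA (9.46%, 3.89 to 18.5, and 5.41%, 1.49 to 13.3), against 2.59% (1.46 to 4.24) of single TRA. TRAJ9, TRAJ26, TRAJ31 and TRAJ34 had 4 lower TRA each. The same TRAV was named in both chains of 8 lymph node and 2 skin cells, and the same TRAJ in 10 and 13. The median junction had 3 bases in higher and lower TRA of each tissue, beside 3 and 2 in single TRA.

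A further TRA contig that was not productive was present in 29 of 307 lymph node dual TRA cells (9.45%, 6.42 to 13.3) and 483 of 2241 single TRA cells (21.6%, 19.9 to 23.3). In skin it was present in 7.81% (3.81 to 13.9) and 19.3% (17.1 to 21.6). A cell with a productive and a non-productive TRA rearrangement falls among the single TRA cells by definition, so this difference is tied to the rule.

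The gene table, from the expression library of the same lymph node barcodes, was also searched for both chains. The libraries share barcodes, so this search does not tell RNA of a cell from other RNA under its barcode. The table held 34 TRAV genes. Where the TRAV of the lower TRA was among them, its transcript was found in 129 of 136 cells (94.9%, 89.7 to 97.9). This was the case for 126 of 129 higher TRA (97.7%, 93.4 to 99.5) and for 941 of 998 single TRA (94.3%, 92.7 to 95.6). TRAV genes named by no contig of the cell had a UMI in 0.727% of cell and gene combinations in dual and 0.753% in single TRA cells. In the 63 dual TRA cells whose TRAV genes were both in the table, both were found in 60 (95.2%, 86.7 to 99.0). Over all cells of the groups, 2 or more TRAV genes had a UMI in 32.2% (26.7 to 37.9) of dual and 17.5% (15.8 to 19.3) of single TRA cells.

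Droplets with more than 1 cell were considered through TRB. Barcodes with 2 TRB made up 10.5% (9.56 to 11.6) of lymph node and 3.63% (2.85 to 4.54) of skin barcodes and are in neither group. Of those with a TRA, 31.8% (26.7 to 37.3) and 20.7% (11.2 to 33.4) had 2 TRA. The gene table showed 2 or more TRBV genes in 39.9% (34.2 to 45.9) of dual and 34.2% (32.1 to 36.4) of single TRA cells. In cells with 2 TRB contigs the share was 90.5%. The groups were formed by their number of TRB contigs, so the distance from this last value is tied to the rule. Whether dual TRA cells include droplets with more than 1 cell was not tested. The median UMI number was 4624 in dual TRA cells, 4497 in single TRA cells and 7422 in cells with 2 TRB and 2 TRA. Among the contigs kept, no barcode held more than 2 sequences of either chain. Whether a limit of 2 was set before deposit was not tested.

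Expression of dual TRA cells was close to that of single TRA cells. UMIs of the 283 dual and 1852 single TRA cells in the gene table were summed per gene and divided by the totals of 1353303 and 8309313 to give CPM, counts per 1000000. Ratios are log2 of dual over single TRA cells with 1 CPM added on both sides, and intervals are of the ratio of the counts. Of 8398 genes with at least 50 UMIs, 102 had a log2 ratio of at least 1 or at most -1, or 1.21%. Of these, 15 were higher (0.179%) and 87 lower (1.04%), and the median over all genes was -0.01, with 47.7% of genes above 0. Ratios spread farther below 0 than above it (5th and 95th percentiles -0.57 and 0.42), and the dual side had fewer UMIs. How far this gave the excess of lower genes was not tested. The count of 102 genes became 3 with a prior of 10 CPM, 169 after thinning cells to 1500 UMIs and 208 with no minimum of UMIs. In counts simulated for the group sums, 0.829% of unchanged genes passed the same limit. That simulation held no differences between cells, so it leaves out UMIs concentrated in few cells and is no baseline for the 1.21%. The interval lay above equality for 200 genes (2.38%) and below it for 223 (2.66%), where counting error alone leaves at most 2.5% on each side. These differences have no replicate check, and Trac is tied to the rule, which selects cells by their TRA.

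Trac, which encodes the constant part of every alpha chain, stood at 283.8 CPM in dual and 220 CPM in single TRA cells (log2 ratio 0.36, 0.20 to 0.53). With cells divided into 4 equal classes of total UMIs it was, from the shallowest to the deepest, 356, 349, 242 and 259 CPM in dual and 253, 222, 220 and 205 CPM in single TRA cells, higher in dual TRA cells in each. The beta constant genes were closer to equality, Trbc1 at 0.11 (-0.18 to 0.40) and Trbc2 at 0.02 (-0.19 to 0.22). Cells with 2 TRB and 2 TRA stood at 224 CPM of Trac, near the single TRA cells.

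The 12 genes of the receptor complex and its coreceptors had a median log2 ratio of 0.01 (-0.01 to 0.02 over the other settings), with 7 members higher and 5 lower. Cd3e, a signalling subunit of the complex, stood at 923 and 908 CPM (0.02, -0.06 to 0.11), and Cd247, the zeta subunit, at 172 and 156 (0.14, -0.07 to 0.34). The CD8 chains were slightly higher, Cd8b1 at 0.08 (0.01 to 0.15) and Cd8a at 0.07 (-0.04 to 0.19). Trat1, an adaptor that associates with the receptor, was lowest at -0.80 with 11 and 124 UMIs (-1.92 to 0.01). The 8 CD8 T cell markers had a median of 0.08, and only Trac and Cd8b1 had an interval above equality. Cd3d was at equality, with 1017 and 1016 CPM. Of the 7 genes of the recombination machinery in the table, 4 were higher and 3 lower, from Xrcc4 at -0.17 to Prkdc at 0.13, both of which act in joining broken DNA ends.

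Several genes of effector function lay lower in dual TRA cells. Of the 7 effector genes tested, 1 was higher and 6 lower, with a median of -0.20, beside 47.7% higher and a median of -0.01 over all genes. The interval was below equality for 3 (2.66% of all genes) and above it for 1 (2.38% of all genes). Gzma, which encodes the protease granzyme A, had 6 UMIs in dual and 181 in single TRA cells, or 4.43 and 21.8 CPM (-2.07, -3.76 to -1.15). The single TRA value rested on few cells, 5 of which held 54.7% of its UMIs. A Gzma UMI was seen in 2.12% of dual and 3.46% of single TRA cells. Prf1, which encodes the pore-forming protein perforin, was the member that was higher, at 79.1 and 62.3 CPM (0.34, 0.03 to 0.65).

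Ifng, the gene of interferon gamma, had 2 UMIs in dual and 77 in single TRA cells (-2.05, -5.72 to -0.75). It was less concentrated than Gzma, since the 5 highest single TRA cells held 14.3% of its UMIs. Of the 68 cells with an Ifng UMI, 2 were dual TRA cells (2.94%, 0.358 to 10.2), against 281 of the 2067 without one (13.6%, 12.1 to 15.1). Depth differed between these cells, with a median total of 4013 UMIs where Ifng was seen and 4547 where it was not. This split restates the low Ifng count that named the gene, and it differed between genes: dual TRA cells were 13.0% of cells with a Gzmb UMI and 13.3% of those without, 12.6% and 13.3% for Itgae, and 17.9% and 13.2% for Itga1, integrins of resident T cells. After thinning every cell to 1500 UMIs, 0.714% of dual and 1.66% of single TRA cells had an Ifng UMI. Over the 8 cytokine and chemokine genes tested, 2 were higher and 6 lower, with a median of -0.07 (-0.13 to 0.03 over the other settings) and Tgfb1 highest at 0.07.

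Genes of inhibition and anergy, the unresponsive state of T cells, had the lowest median of the lists with 5 or more genes, at -0.39. Of 10 members tested, 2 were higher and 8 lower, all at low counts. Wnt10a, a secreted signalling protein found in anergic T cells, had 3 and 82 UMIs (-1.76, -4.46 to -0.56), and Lag3, an inhibitory receptor, was highest at 0.13 with 14 and 78 UMIs. The list had 174 UMIs in dual and 1422 in single TRA cells, or 129 and 171 CPM. Among residency genes 4 were higher and 8 lower, with a median of -0.13, from Bhlhe40, a transcription factor, at -1.45 (2 and 48 UMIs) to Nr4a3 at 0.20. Early activation genes had 4 higher and 7 lower of 11, with a median of -0.05.

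Genes of recirculating and quiescent T cells showed little difference. Of 11 recirculation genes, 5 were higher and 6 lower, with a median of -0.01. S1pr1, the receptor that lets T cells leave lymph nodes, was highest at 163 and 132 CPM (0.30, 0.09 to 0.52), and Klf3, a transcription factor, lowest at 116 and 143 CPM (-0.30, -0.55 to -0.06). The 13 genes of stem-like memory had 6 higher and 7 lower members and a median of -0.01. The 9 quiescence genes had a median of 0.01 with 8 higher, and the 13 interferon response genes one of 0.05 with 9 higher. In each of these 3 lists 0 genes had an interval that left out equality. Over the other settings these medians took either sign: -0.02 to 0.05 for recirculation and stem-like memory, -0.01 to 0.09 for quiescence and -0.01 to 0.11 for the interferon response.

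The 14 cytotoxicity genes had 6 higher and 8 lower members and a median of -0.02. Past the fold were 3 of them, beside 1.21% of all genes. All 3 were granzymes and lower: Gzma, given above, and Gzmb and Gzmk, named after their values were seen. Gzmb had 8 and 139 UMIs (-1.36, -2.74 to -0.48), and Gzmk had 4 and 62 (-1.10, -3.26 to 0.09). Dual TRA cells were 13.0% of the 46 cells with a Gzmb UMI and 13.3% of those without. The Gzmb ratio thus rests on UMIs per cell rather than on how many cells had one. The highest member was Serpinb6b, a protease inhibitor, at 0.46 (-0.03 to 0.95). Of 8 NK receptor genes, 5 were higher, with a median of 0.04 (-0.09 to 0.10 over the other settings), and Klra3, an inhibitory receptor of the Ly49 family, stood at 0.56 (0.10 to 1.03) with 50 and 206 UMIs. With contigs of at least 2 UMIs Klra3 was at -0.023. Among 10 cell cycle genes 3 were higher and 7 lower, with a median of -0.12, Stmn1 at 0.33 and Pcna at -0.36. The 7 chemokine receptors had 4 higher and 3 lower members, with a median of 0.01, and Cxcr4 was lowest at -0.47. That median was below 0 in 7 of the other settings, down to -0.18.

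Outside the lists, the gene with the highest ratio under the naming rule was AY036118, a long non-coding RNA, at 625 and 314 CPM (0.99, 0.88 to 1.11). It was seen in 55.1% of dual and 54.6% of single TRA cells, and 1 dual TRA cell held 387 of its 846 UMIs. Without that cell the ratio was 0.12 (-0.03 to 0.26). The other 9 highest genes lay between Tesc at 0.68 and Fam118b at 0.78, and included Rab5b, of early endosomes, at 0.75 and Pola2, a subunit of DNA polymerase alpha, at 0.69. The 10 lowest lay between Ift52, of the transport machinery of cilia, at -0.91 and Vps35, of the retromer, at -0.75. Among them Stk11, the kinase LKB1, stood at 17.7 and 33.3 CPM (-0.87, -1.58 to -0.31). The remaining highest genes were Vps37a, Zfp672, Patz1, Fra10ac1 and Rhno1, and the remaining lowest Rlf, Mfsd10, Dpp3, AU020206, Rabep1, 2010016I18Rik and Colgalt1.

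**Figure D5:**
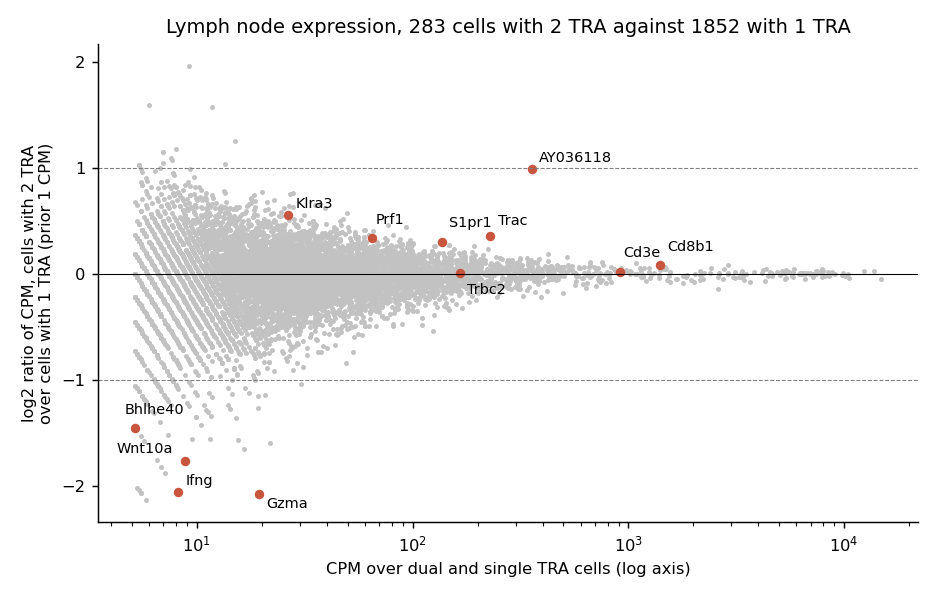
Log2 ratio of CPM in dual over single TRA cells (vertical axis, prior of 1 CPM) against CPM over both groups (horizontal log axis) for 8398 genes of the lymph node, with named genes in red and dashed lines at ratios of 1 and -1. Trac lies above Trbc2, Gzma and Ifng lie near -2, and AY036118 at 0.99 includes the 387 UMIs of 1 cell.

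Markers of other cell types were at low levels in both groups. The B cell list summed to 217 CPM in dual and 227 CPM in single TRA cells, and the myeloid list to 139 and 131. Cd74, the invariant chain of antigen presentation, stood at 9.61 and 19.9 CPM (-0.98, -1.99 to -0.23). The 2 CD4 T cell genes in the table summed to 8.87 and 8.30 CPM, and the 1 gamma delta T cell gene, Trgv2, to 8.13 and 8.06. The NK and the NKT and MAIT lists stood at 85.7 and 91.0 CPM and at 76.1 and 87.5 CPM, nearly all from Eomes and from Il18r1, which CD8 T cells also express. Keratinocyte and endothelial lists were at 7.39 and 9.39 CPM and at 20.7 and 24.7 CPM, and the dendritic list at 1.48 and 2.89 CPM. Stromal, erythroid and melanocyte lists had 0 genes in the table.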

How the data were processed

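Receptor contigs of sorted CD8 T cells (lymph node, skin) and a lymph node gene table were used. The deposited tables give UMI counts per contig and, for each gene in each cell, UMI counts that are whole numbers, with the lanes of a library pooled by the authors, per the file headers. Bowtie, RSEM and the build mm10 are named in the submitters' processing notes. A tool for contig assembly was not given in the sources used here. The gene table had been filtered before deposit to 3266 cells and 9428 genes.

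Contigs were kept as the opening of the results states, leaving 7423 of 9927 lymph node and 3603 of 4545 skin contigs. Where a sequence had several contigs, that with most UMIs was taken. The lower TRA is the one with fewer UMIs or, where UMIs were equal, with fewer deposited reads. Junction bases and positions came from GENCODE M21 (mm10), in which all 89 TRAV and 43 TRAJ segments used were found. Barcodes with 2 TRB were left out as possible doublets, and no expression-based doublet caller was used.

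Shares carry exact Clopper-Pearson intervals, and ratios exact binomial ones. Where 0 was observed, the limit is 3 counts of the total. Thinning to 1500 UMIs left out 3 dual and 48 single TRA cells. Genes were named by rule: the 10 highest and 10 lowest ratios among genes with a UMI in 10% of cells of the higher side, 50 UMIs over both, an interval excluding equality and the same direction with 1 cell per clone and after thinning, without receptor, mitochondrial and ribosomal protein genes. The highest and lowest member of each list, receptor and sort genes, and the 5 TRAV and TRAJ commonest in lower TRA were added. One gene that this rule names is not reported here. Members and lists were chosen with earlier results of these data known. Counts were simulated for this comparison (8398 genes) as sums per group, without differences between cells. In them, 50 genes lowered by 2 on the log2 scale were estimated at a median of -2.08 and 50 raised by 2 at 1.91. A ratio of 1 in size was passed by 0.829% of unchanged genes. Python 3.11.15 with pandas 2.3.3, numpy 2.4.6 and scipy 1.17.1 was used.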

Additional observations from a re-analysis of the deposited data

Results flagged for a closer look

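Barcodes with 2 TRA but no TRB belong to no comparison above and were seen in both tissues. There were 16 in the lymph node (12.2% of 131 barcodes with a TRA and no TRB, interval 7.15 to 19.1) and 25 in skin (11.1% of 226, 7.29 to 15.9). These shares are close to those of dual TRA cells, with overlapping intervals. The 11 lymph node barcodes of this kind in the gene table had a median of 2973 UMIs, below the 4624 of dual TRA cells. Whether they are cells with a missed TRB was not tested.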

How the results depend on the processing

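No paired analysis was possible because the lanes, which carry the only replicate numbers, were pooled by the authors; for the same reason no replicate could be left out. Of 63 values recomputed for the shares, ratios, recurrence, genes past the fold and lists under other settings, 48 stayed within the interval, 1 SD or 1.5 times the reported value, as each kind allows, and 15 did not. With contigs of at least 2 UMIs, the skin share was 7.11%, the share in lymph node clones of 2 or more cells 4.17% (120 cells), and recurrence in the lymph node 0% (5 cells). With at least 3 UMIs, the lymph node and skin shares were 9.18% and 4.66%, those in clones of 2 or more cells 4.76% and 3.57%, and lymph node recurrence 0% (2 cells). Counting the lower TRA only at 25% or more of the higher also gave lymph node recurrence of 0% (15 cells). Without cells with a TRA also found with another TRB, skin recurrence was 75% (44 cells). The median UMI ratio kept to 0.667, or 0.75 in skin without those cells. Genes past the fold numbered 3 with a prior of 10 CPM, 208 with no minimum of UMIs and 169 after thinning, against 102. Lists with a median above 0 numbered 7 of 16, and 4 with 1 cell per clone and within the 10th to 90th percentile of depth. With contigs of at least 2 UMIs, AY036118 (-0.60) and Klra3 (-0.023) changed direction. Effector and inhibitory medians were below 0 under every setting run (-0.37 to -0.10 and -1.05 to -0.22). Alternatives that left out a named clone, or the cell with most UMIs of a gene, were chosen after seeing the data. The shares are of cells in which both TRA were captured, and a cell whose other TRA was missed counts as a single TRA cell.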
